A study of Homo sapiens with 4 samples.

Results

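The small ribosomal subunit protein genes were examined in the IGF2BP2 iRIP-seq peak lists of Jurkat cells, as a set of 29 genes out of 20056 protein-coding genes in the RefSeq table used (GRCh38.p14). The set held RPSA, FAU and 27 genes whose symbols begin with RPS. Its members were taken by gene name, with earlier results of these data known. A peak was counted for a member when its Ensembl identifier had been assigned to that gene by position and strand, when it lay at the gene and when it had CDS, UTR, noncoding exon or intron of the same strand as its main region. Such peaks are called sense peaks below. They numbered 81 of 145715 peaks in replicate 1 and 86 of 137934 peaks in replicate 2.

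Jurkat is an established human T-ALL cell line, grown without any treatment that the labels name. In iRIP-seq, RNA is crosslinked to protein with UV light, immunoprecipitated here with an anti-IGF2BP2 antibody, and sequenced. The study made 2 IGF2BP2 iRIP libraries and 2 input libraries of the same line, and the peak lists of the 2 iRIP libraries are the data described here. The sources used do not state whether the replicates came from separate cultures, so the spread between them may be technical. The inputs were not analysed here.

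The small (40S) ribosomal subunit scans an mRNA for its start codon and decodes it. Its proteins are needed in equal amounts and are made from some of the most abundant mRNAs of a growing cell. Most of these mRNAs carry a 5′ terminal oligopyrimidine (TOP) tract, a run of C and T that begins at the cap-proximal C and ties their translation to mTOR signalling and to LARP1. Many of the genes also carry small nucleolar RNA (snoRNA) genes in their introns. IGF2BP2 is an RNA-binding protein with KH and RRM domains that reads m6A on mRNAs. The height of a peak in these lists is a number of tags, given per 50 nt bin. RNA levels were not analysed here, and their part in the counts below was not tested.

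A sense peak was listed for 25 of the 29 genes in replicate 1 and for 26 in replicate 2, with 25 in both (86.2%, 95% Wilson interval 69.4% to 94.5%). Over all protein-coding genes the shares were 54.4% in replicate 1, 52.9% in replicate 2 and 44.0% in both. The members are short genes, with a median length of 5015 nt against 24092.5 nt over all protein-coding genes, and among the protein-coding genes within their length range 26.4% had a sense peak in both lists. RPS24 had a peak in replicate 2 alone. RPS15A, RPS27L and RPS28 had a sense peak in neither list.

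The members' peaks were high. A peak of at least 10 tags was found in 19 members in replicate 1, in 25 in replicate 2 and in 19 in both, that is 65.5% of the members (47.3% to 80.1%). For all protein-coding genes these shares were 4.36%, 10.0% and 3.81%. The members' peaks had a median height of 9 tags in the first list and 14 tags in the second, whereas over all sense peaks the median equalled the lowest height listed, 4 and 5 tags. The highest peak of a member had a median of 15 tags in replicate 1 (range 5 to 69, 25 genes) and of 27.5 tags in replicate 2 (range 6 to 89, 26 genes).

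**Figure D1:**
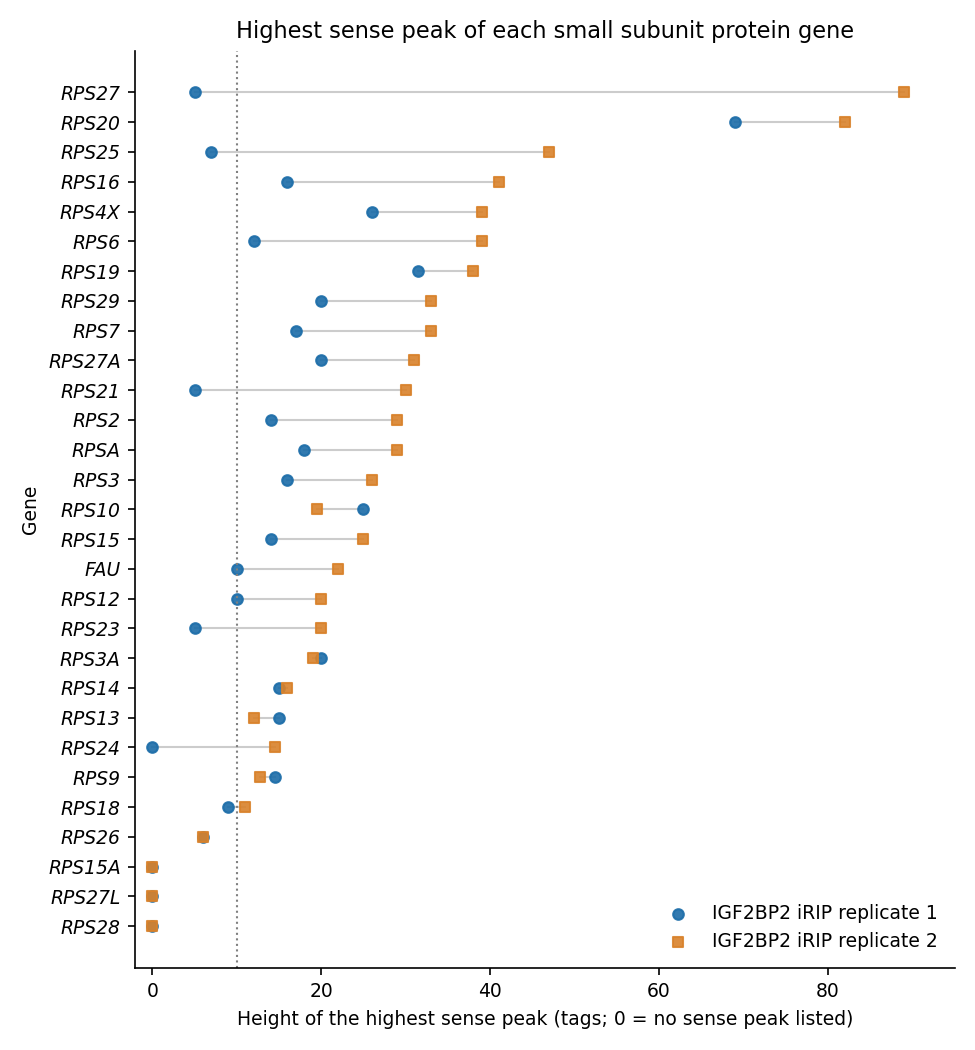
The height of the highest sense peak, in tags, is plotted for each of the 29 genes in replicate 1 (circles) and replicate 2 (squares), joined by a line, with 0 where no sense peak was listed and a dotted line at 10 tags. RPS20 was high in both lists, at 69 and 82 tags, while RPS27 and RPS25 were high in replicate 2 alone.

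Sense peaks lay over the RefSeq transcription start of several members. Of the 26 members with an entry in the table of starts, 6 had a peak over a start in both lists, namely RPS3, RPS12, RPS14, RPS18, RPS19 and RPS21. This is 23.1% (11.0% to 42.1%), beside 0.562% of the 15843 protein-coding genes with an entry. RPS9 had one in replicate 1 alone, and RPS3A, RPS24 and RPS27 in replicate 2 alone. RPS2, RPS15A and RPS20 have no entry in the table of starts. A peak was counted only if its bins held the start base itself, so the count depends on where the bins fall. RPS15 (start at chr19:1438396) had a peak in both lists at chr19:1438401-1438450. RPS23 (start at chr5:82278354) had one in both lists at chr5:82278301-82278350. Both peaks lay just downstream of the start and were not counted.

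The 30 bases around the start are shown for these 6 genes, for RPS24 and RPS27, whose start peak was in 1 list, and for RPS27L, a paralog of RPS27 without a sense peak. The windows run 5′ to 3′ on the strand of the gene from 10 bases before the RefSeq start, so that the base at position 11 is the start, and come from RefSeq (GRCh38.p14). Capitals mark the longest run of C and T that begins with C within 10 bases of the start, where it has at least 5 letters.
RPS3, chr11:75399508-75399537, + strand: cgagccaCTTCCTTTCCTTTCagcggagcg
RPS12, chr6:132814559-132814588, + strand: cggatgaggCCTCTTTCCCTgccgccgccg
RPS14, chr5:150449720-150449749, - strand: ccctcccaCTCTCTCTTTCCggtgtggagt
RPS18, chr6:33272065-33272094, + strand: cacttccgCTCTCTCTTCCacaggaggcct
RPS19, chr19:41860245-41860274, + strand: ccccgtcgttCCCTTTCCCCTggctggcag
RPS21, chr20:62387093-62387122, + strand: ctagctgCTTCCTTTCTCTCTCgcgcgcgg
RPS24, chr10:78033853-78033882, + strand: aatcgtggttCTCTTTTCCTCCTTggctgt
RPS27, chr1:153990752-153990781, + strand: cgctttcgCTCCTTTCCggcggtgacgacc
RPS27L, chr15:63157458-63157487, - strand: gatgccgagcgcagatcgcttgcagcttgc

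All 6 genes with a start peak in both lists had such a run, of 11 to 15 letters. It was searched on the gene's own strand only. Of the 26 members with a start entry, 23 had a run of at least 5 letters (88.5%), and the median of the longest run was 10.5 letters. Over the 15843 protein-coding genes, 41.1% had such a run and the median was 4 letters. RPS4X, RPS27L and RPS29 were the members without one. For RPS29 the RefSeq start used is the outermost, which lies 12435 nt upstream of its highest peak. The run is a description of the sequence and was not tested against the peaks.

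Among the start peaks found in both lists, that of RPS14, a protein whose gene lies in the region lost in the 5q- syndrome, had 15 tags in each replicate, at chr5:150449701-150449750. The start peak of RPS12, which also hosts 3 snoRNA genes, had 10 and 20 tags in replicates 1 and 2. RPS19, the gene most often mutated in Diamond-Blackfan anemia, had 17 and 10 tags, the latter a mean over 2 bins with 20 tags summed. RPS21 had 5 and 14 tags. RPS18 had 7 and 11 tags, and its start peak was its sole peak in replicate 2. RPS3, which sits at the entry of the mRNA channel, had a wide start peak of 9 and 9.25 tags, the mean over its bins. Start peaks of these 6 genes thus had 5 to 20 tags, while that of RPS27 in replicate 2 had 89 tags.

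Peaks that touched an annotated 5′ UTR were found in 20 members in both lists (69.0%, 50.8% to 82.7%), against 6.13% of all protein-coding genes. RPS24, RPS25, RPS26 and RPS27 had such a peak in replicate 2 alone, and no member in replicate 1 alone. RPS16 and RPS29 had sense peaks in both lists, none of which touched a 5′ UTR. By position, 35.8% of the members' peaks in replicate 1 and 38.4% in replicate 2 had their centre within 500 nt downstream of the outermost start or before it. For other protein-coding genes in the same range of gene length the shares were 11.9% and 11.4%. The other genes share the range but were not matched on length within it. Their peaks lay a median of 5871 and 5953.5 nt from the start, against 922 and 883.5 nt for the members. A fixed window of 500 nt can thus cover unlike parts of the genes, and the part of length in this difference was not tested. The first 50% of the gene's length held 81.5% and 76.7% of the members' peaks and 50.3% and 49.2% of the peaks of the other genes. The length is that of the full RefSeq interval, which can run past the transcript that carries the peaks. In replicate 1 a 3′ UTR peak of RPS3 lay at 27.5% of its 22785 nt, and that of RPS20 at 19.7% of its 7253 nt. The part of this in the shares was not tested. With peaks of at least 10 tags alone, 41.2% and 42.6% of the members' peaks were within 500 nt, beside 19.3% and 14.2% for the other genes.

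The CDS was the most frequent main region of the members' peaks, with 41 of 81 peaks in replicate 1 (50.6%, 39.95% to 61.2%) and 44 of 86 in replicate 2 (51.2%, 40.8% to 61.4%). The mean was 50.9% ± 0.386 (SD, n = 2). The difference between the libraries was 0.546 percentage points, with p = 1 in a two-sided Fisher's exact test that treats peaks as independent, although peaks of 1 gene share its RNA. Over all sense peaks the CDS share was 19.9% and 25.6%. Introns were the main region of 11.1% and 14.0% of the members' peaks, against 69.2% and 62.4% of all sense peaks. The 5′ UTR accounted for 23.5% (15.6% to 33.8%) and 19.8% (12.7% to 29.4%), against 2.78% and 3.33%. The 3′ UTR, with 4.94% (1.94% to 12.0%) and 6.98% (3.24% to 14.4%), had intervals that held its share of all sense peaks, 3.65% and 4.0%.

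Since region and height go together in these lists, the shares were also set side by side at the same minimum height. Among peaks of at least 10 tags, the CDS held 55.9% (39.5% to 71.1%) of 34 member peaks in replicate 1 and 54.1% (41.7% to 66.0%) of 61 in replicate 2. The values for all sense peaks of that height, 58.5% and 59.9%, lay within these intervals. The 5′ UTR held 26.5% (14.6% to 43.1%) and 24.6% (15.5% to 36.7%) of these member peaks, and 7.75% and 5.59% of all sense peaks, which lay below the intervals. Introns held 8.82% (3.05% to 23.0%) and 11.5% (5.67% to 21.8%), against 25.4% and 26.5%. No member peak of that height had the 3′ UTR as its main region in replicate 1, and 1 had it in replicate 2. At matched minimum height the CDS share was thus not distinguishable from that of all sense peaks at this number of peaks, while the 5′ UTR share was higher. The intervals cover counting error only.

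The members' peaks often recurred between the lists. In replicate 1, 53 of 81 peaks (65.4%, 54.6% to 74.9%) shared at least 1 bp and the strand with a sense peak of replicate 2, and in replicate 2, 52 of 86 (60.5%, 49.9% to 70.1%). Over all sense peaks 16.6% and 15.8% were overlapped. Among peaks of at least 10 tags, 82.4% (66.5% to 91.7%) and 75.4% (63.3% to 84.5%) of the members' peaks were overlapped, beside 73.5% and 62.4% of all sense peaks of that height. The interval of replicate 1 held the value for all sense peaks, and that of replicate 2 began just above it.

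The overlapping peaks formed 54 pairs in 22 genes. Replicate 2 was higher in 42 pairs, replicate 1 in 8, and 4 were equal, with a median ratio of replicate 2 over replicate 1 of 1.61 (range 0.588 to 4). A height is a mean per bin, and the 2 peaks of a pair can differ in width. In the 35 pairs with the same bounds, replicate 2 was higher in 29, replicate 1 in 3, and 3 were equal. Heights are not adjusted for depth. In pairs with the same bounds and at least 5 tags in replicate 1, the median ratio was 1.65 over 33 member pairs and 1.33 over 5460 pairs of other protein-coding genes. Over the 25 genes with a peak in both lists, the heights of the highest peaks on a log2 scale had a Pearson r of 0.27 and a Spearman rho of 0.21, a description over genes that share their library.

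**Figure D2:**
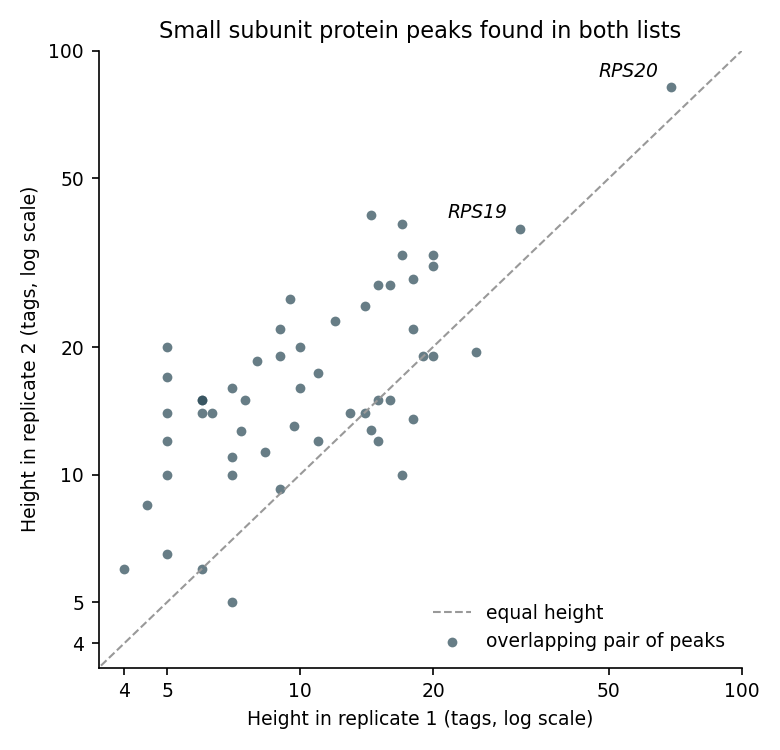
Each point is 1 of the 54 pairs of overlapping member peaks, with its height in tags in replicate 1 and in replicate 2 on log axes, and the dashed line marks equal heights. By mean height per bin, replicate 2 was higher in 42 pairs, and in 29 of the 35 pairs with the same bounds. The RPS20 peak (69 and 82 tags) stands above all others.

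The proteins of the head of the subunit were encoded by 12 of the members, and 11 of them had a sense peak in both lists, 9 of them one of at least 10 tags in both. The body and platform were represented by 16 members, of which 14 had a sense peak in both lists and 10 one of at least 10 tags in both. The median of the highest peak was 16 and 31 tags for the head and 14.25 and 22 tags for the body and platform. The difference between the groups was not tested.

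In the head, RPS20, a neighbour of RPS3 in the subunit, had the highest peak shared by both lists. It lay at chr8:56074351-56074400, with 94% of its length in the 5′ UTR and the rest in the CDS, and reached 69 tags in replicate 1 and 82 in replicate 2. In replicate 1 it was the highest of all 74237 sense peaks, and in replicate 2 it ranked 7 of 77288. Its other peaks had 7 tags in replicate 1 and 5 to 13 tags in replicate 2, so that its height came from a single bin.

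RPS19 had the next highest shared peak, at chr19:41861101-41861200, with 31.5 and 38 tags in replicates 1 and 2 and 89% of its length in the CDS. A further CDS peak at chr19:41860751-41860850 had 18 and 22 tags. Together with the start peak, 3 peaks of RPS19 recurred, all of them within the first 1000 nt of a gene of 12671 nt.

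RPS10, a head protein that is ubiquitinated on stalled ribosomes, had recurring peaks at chr6:34425051-34425150 in the CDS (25 and 19.5 tags) and at chr6:34426001-34426050 in the 5′ UTR (19 tags in each). Unlike in most members, these heights in replicate 2 were equal to or below those in replicate 1. The identifier of these peaks (ENSG00000270800) also had 5 peaks beyond RPS10, so it may be that of the readthrough gene RPS10-NUDT3, which shares the start of RPS10. No sense peak with another identifier was assigned to RPS10, and peaks of both genes cannot be told apart. Without RPS10, 24 members had a sense peak in both lists.

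RPS16, whose protein reaches toward the P site tRNA, had a CDS peak at chr19:39435601-39435700 of 14.5 tags in replicate 1, narrowed to chr19:39435601-39435650 with 41 tags in replicate 2. An adjacent peak at chr19:39435801-39435850, 94% intronic with the rest in the CDS, had 16 and 28 tags. RPS29, a zinc-binding head protein, had a peak at chr14:49586251-49586300 of 20 and 33 tags, of which 68% was noncoding exon and 32% CDS. Both genes thus had their highest recurring peaks outside the annotated 5′ UTR. The same held for RPS19, RPS27A, RPS10, RPSA, RPS4X and RPS7, but not for RPS20.

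RPS15 and RPS3 had no peak over 26 tags. RPS15, which lies near the decoding site, had 14 and 25 tags in the CDS at chr19:1438801-1438900 and 11 and 12 tags in the 5′ UTR at chr19:1438401-1438450. RPS3 had 9 peaks in replicate 1 and 5 in replicate 2, the most of any member in replicate 1, and its highest were an intronic peak of 16 tags in replicate 1 and a CDS peak of 26 tags in replicate 2.

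RPS25, a head protein that certain viral and cellular IRES elements need, differed between the lists. Replicate 1 listed 1 sense peak of 7 tags in a noncoding exon, while replicate 2 listed a peak of 47 tags at chr11:119018251-119018300, 68 nt from the start, and a 3′ UTR peak of 6 tags. No sense peak of RPS25 was shared.

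In the body and platform, RPS3A, which lies at the mRNA exit, had 20 and 19 tags at chr4:151100451-151100500 in replicate 1 and chr4:151100451-151100550 in replicate 2, over the junction of annotated 5′ UTR and CDS. RPSA, also known as a laminin receptor, had its highest shared peak in the CDS at chr3:39410751-39410800, with 18 and 29 tags, and had 8 peaks in replicate 2 against 3 in replicate 1. RPS7, one of the ribosomal proteins that bind MDM2, had 17 and 33 tags at chr2:3575801-3575850, 68% of it CDS and 32% intron. The recurring peaks of RPSA and RPS7 were all higher in replicate 2. Of the 3 of RPS3A, 1 was higher there (9 and 19 tags) and 2 had a lower mean per bin (20 and 19, 18 and 13.5 tags). These 2 peaks were 50 nt wide in replicate 1 and 100 nt wide in replicate 2. Their tags summed over bins were higher in replicate 2 (20 and 38, 18 and 27).

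RPS4X, which is X-linked and has a Y-linked homolog, had a CDS peak at chrX:72276151-72276200 of 17 and 39 tags. Its highest peak in replicate 1 was another, at chrX:72275051-72275100 with 26 tags, and was not listed in replicate 2. RPS6, the substrate of S6 kinase, had 12 and 23 tags in the 5′ UTR at chr9:19380151-19380200. It had 4 further peaks in replicate 2 that replicate 1 lacked, up to 39 tags at chr9:19378701-19378750.

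RPS2, near the mRNA entry, had a recurring peak at its 5′ end, chr16:1964801-1964850, of 13 and 14 tags. Replicate 2 also listed a peak of 29 tags per bin over 300 nt, chr16:1964251-1964550, without a counterpart in replicate 1. RPS21 had 5 tags at most in replicate 1 and 30 tags in replicate 2, where a 3′ UTR peak at chr20:62387801-62387850 was its highest. RPS23, a core protein of the decoding centre, had 5 tags at most in replicate 1 and 20 in replicate 2. The remaining members with peaks in both lists, RPS9, RPS12, RPS13, RPS14, RPS18 and RPS26, had maxima of 6 to 15 tags in replicate 1 and 6 to 20 tags in replicate 2. RPS26 had 1 peak of 6 tags in each list, at places that did not overlap.

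In total 28 member peaks of replicate 1 and 34 of replicate 2 had no overlapping peak in the other list. Of these, 6 in replicate 1 and 15 in replicate 2 had at least 10 tags. According to the study's methods, peaks that met input peaks were removed from each list, and whether this removed the counterparts of these peaks was not tested.

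RPS27A and FAU encode fusions, of ubiquitin with a ribosomal protein in RPS27A and of a ubiquitin-like protein with a ribosomal protein in FAU. RPS27A had 3 recurring CDS peaks, of 20 and 31 tags at chr2:55233351-55233400, of 15 and 28 tags at chr2:55234101-55234150, and of 14 tags in each list at the junction of 5′ UTR and CDS. FAU had 9 and 22 tags at chr11:65121701-65121750, 76% of it noncoding exon, and 4.5 and 8.5 tags in the 5′ UTR. RPS27A thus had 3 recurring peaks and FAU 2, and the highest recurring peak of RPS27A was above that of FAU in each list.

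RPS27 and RPS27L encode closely related zinc finger proteins of the subunit, and RPS27L is known as a p53-inducible gene. RPS27 had the highest member peak of replicate 2, 89 tags at chr1:153990751-153990800 over its start, which ranked 5 of the 77288 sense peaks there. In replicate 1 its sole sense peak had 5 tags in the CDS. At the bin of the 89 tags, replicate 1 listed a peak of 9 tags on the opposite strand and none on the gene's strand. RPS27L had no sense peak, and 1 antisense peak of 4 tags in replicate 1.

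Of the remaining members without a sense peak in at least 1 list, RPS24, a Diamond-Blackfan anemia gene, had a start peak of 14.5 tags at chr10:78033851-78033950 in replicate 2. RPS28 had 1 antisense peak of 4 tags in replicate 1. No sense or antisense peak was assigned to RPS15A, whose strand was not given in the reference used. The authors kept uniquely mapped reads, so reads that fit a pseudogene equally well are not in the lists. RefSeq listed 656 pseudogenes named for the members, with 40 for RPS15A, 20 for RPS24, 9 for RPS28 and none for RPS27L. Members with a sense peak in both lists had from 4 pseudogenes (RPS9 and FAU) to 74 (RPSA). Over the 29 genes, the number of pseudogenes and the height of the highest peak had a Spearman rho of 0.20 in replicate 1 and 0.14 in replicate 2. A peak lay in 23 of the pseudogenes in replicate 1, none of at least 10 tags, and in 21 in replicate 2, of which 2 had one of at least 10 tags. The part of shared sequence in the members' heights was not tested.

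Of the members, 7 host 14 snoRNA genes. Member peaks overlapped 1 of the 14 in replicate 1 and 2 in replicate 2, and none in both. In replicate 1 a noncoding exon peak of RPS2 with 14 tags met SNORA64 (chr16:1962973-1963106) over 6 nt. In replicate 2 peaks of 5 tags met SNORD15B in RPS3 over 30 nt and SNORD54 in RPS20 over 50 nt. These peaks were 1.23% (0.218% to 6.67%) and 2.33% (0.640% to 8.09%) of the members' peaks, against 0.0377% and 0.0453% of all sense peaks. The snoRNA genes of RPS12, RPS13, RPS3A and RPSA carried no member peak.

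Other genes of the ribosome were counted from lists set by name. Of 47 large subunit protein genes, 46 had a sense peak in both lists and 34 had one of at least 10 tags in both. A start peak in both lists was found in 13 of the 38 with a start entry. Peaks of these genes touched the 5′ UTR in 33.8% (26.9% to 41.4%) and 31.9% (25.3% to 39.4%) of cases, beside 34.6% (25.1% to 45.4%) and 33.7% (24.6% to 44.2%) for the small subunit, so that the intervals overlapped. Of 27 genes for 40S assembly factors, which build the subunit in the nucleolus and cytoplasm, 23 had a sense peak in both lists. Among the 27, 1 had one of at least 10 tags in both, and none of the 26 with a start entry had a start peak in both. Their peaks touched the 5′ UTR in 4.0% (1.57% to 9.84%) and 2.56% (0.876% to 7.27%) of cases. Over all sense peaks 3.76% and 4.60% touched it, values within these 2 intervals. Of all protein-coding genes, 44.0% had a sense peak in both lists and 3.81% had one of at least 10 tags in both. Of those with a start entry, 0.562% had a start peak in both. The median of the highest peak was 15.75 and 26.5 tags for the large subunit and 5 and 6 tags for the assembly factors.

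As a check of the cell type, 13 of 18 T cell line genes had a sense peak in both lists, while 1 of 4 B cell genes and 1 of 4 myeloid genes had one, beside 44.0% of all protein-coding genes. In replicate 2 alone the counts were 14 of 18, 3 of 4 and 2 of 4. LAT, TRAC and TRBC1 of the T cell line genes had no peak assigned in either list. Peaks do not measure RNA levels, and these short lists do not settle the cell type. In both lists every height that was not a whole number belonged to a peak of more than 1 bin, and height times bins was whole within 0.002 tags in all 4177 and 7345 peaks of more than 1 bin, so the height of a wide peak is its mean per bin. Wide peaks made up 27.2% and 39.5% of the members' peaks, against 4.93% and 8.24% of all sense peaks.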

How the data were processed

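Peak lists of 2 IGF2BP2 iRIP libraries of Jurkat cells were used. Reads (150 bp pairs) were mapped with TopHat 2 by the authors, who kept those with 1 place in the genome, called peaks per library with ABLIRC and removed those overlapping input peaks. The build is GRCh38 per the labels. Heights, as deposited, are a signal in tags, not adjusted for depth, and the number of reads per library is not given in the sources used here. The deposited p-value served as a filter alone. Regions and identifiers are the authors' own, and the annotation behind them is not given in the sources used here.

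The main region of a peak is the one that takes most of its length (the first listed in a tie). Positions were read as half-open and are printed 1-based. The reference table held no Ensembl identifiers, in place of the planned match, so identifiers were named by position and strand: CDS or UTR peaks of an identifier had to lie to 80% or more in a single protein-coding gene (margin 1000 nt), and identifiers without such peaks had to lie wholly in a single gene. Of 20428 identifiers 16115 could be placed in 1 gene. Readthrough genes were left out of this naming, and 5 peaks outside RPS10 with the identifier of the peaks inside it, which may be that of RPS10-NUDT3, were not counted. Members and gene lists were chosen with earlier results of these data known, and the grouping into head, body and platform after the peaks had been seen.

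Shares carry 95% Wilson intervals. These account for counting error of genes or peaks only. Peaks of 1 gene are not independent, and the spread between the libraries may be technical. Heights may include PCR copies of a read, which are not separate molecules. A two-sided Fisher's exact test compared the CDS shares of both libraries. Full values are given for the 10 members with the highest peak found in both lists, ranked by the lower of the 2 heights, for each member lacking a peak in a list, and for the pairs RPS27 with RPS27L and RPS27A with FAU. The other members are described more briefly. As alternatives, results were recomputed with peaks of 10 tags or more, with a p value under 0.001 (no peak was lost at 0.01), each replicate left out, identifiers replaced by position, exonic peaks only, antisense peaks counted, length in CDS, 5 or 8 tags, an overlap of 50%, strand ignored and replicate 2 against 1. Leaving out RPS10 was added after seeing the data. The naming and overlap functions were tested on simulated data. Python 3.11.15, numpy 2.4.6, pandas 2.3.3, scipy 1.17.1 and matplotlib were used.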

Additional observations from a re-analysis of the deposited data

Results flagged for a closer look

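Peaks on the strand opposite to a member were left out of all counts above. In replicate 1 there were 14 such peaks in 10 members, with heights of 4 to 9 tags, and in replicate 2 there were 14 in 7 members, with heights of 5 to 14 tags. At 5 places an antisense peak was listed in both replicates at the same bin, while over all antisense peaks 0.654% in replicate 1 and 0.821% in replicate 2 were overlapped by an antisense peak of the other list. RPS27 had 2 of these places, chr1:153991101-153991150 with 9 tags in replicate 1 and 10 in replicate 2, and chr1:153991551-153991600 with 5 and 6 tags. RPS25 had one at chr11:119017951-119018000, with 6 and 14 tags. RPS2 had one at chr16:1964401-1964450 with 6 and 7 tags, within the bounds of its wide sense peak of replicate 2. RPS15 had one at chr19:1440301-1440350 with 4 and 5 tags. No control library was analysed here, and what these peaks come from was not tested.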

How the results depend on the processing

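The count of members with a sense peak in both lists (25) stayed between 19 and 25 with peaks of 10 tags or more, with p under 0.001, and with position alone, exonic peaks, antisense peaks and the removal of RPS10. With 1 replicate left out it was 25 to 26, the mean number of peaks (83.5 ± 3.54, SD, n = 2) 81 to 86, the CDS share 50.6% to 51.2% and the mean number of peaks on a snoRNA gene (1.5) 1 to 2. At 10 tags or more the mean number of peaks was 47.5, the CDS share 55.0%, the overlapped share 82.4% and the snoRNA count 0.5. At p under 0.001 the CDS share was 53.2% and the snoRNA count 0.5. The CDS share was 57.1% with position alone, 52.8% by length and 54.1% at 5 tags or more. These shifts exceed an SD of 0.386 that rests on 2 libraries. The difference in CDS share turned to -5.78 percentage points at 5 tags (p = 0.523), -1.71 at 8 (p = 1) and -1.78 at 10 (p = 1, Fisher's exact tests). The minimum of 5 tags removed peaks of replicate 1 alone. No paired analysis was possible because the inputs were not analysed here. The overlapped share and the difference need both replicates and have no value with 1 left out. The unknown depth limits every comparison of heights between the lists.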

Other observations

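In RPS29, an intronic peak of 11 tags in replicate 2 at chr14:49586751-49586800 lay over its full 50 nt within the interval of RN7SL1 (chr14:49586580-49586878), the gene of the 7SL RNA of the signal recognition particle. The gene table gives no strand for RN7SL1, and no such peak was listed in replicate 1. MIR6797, which lies in RPS19, carried no member peak. The number of sense peaks of a member and the length of its gene had a Spearman rho of 0.13 in replicate 1 and 0.14 in replicate 2 over the 29 genes.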
